A study of Mus musculus with 8 samples.

Results

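Far de novo p53 regions are places in the genome where p53 was bound more in bleomycin (BLM)-treated than in vehicle-treated mouse alveolar organoids, where no vehicle library had a called peak, and where the nearest assigned transcription start site (TSS) lay more than 30 kb away. The members were chosen on measured values: they are intervals of the authors' list of 915 BLM-enriched regions that shared no base with a peak of either vehicle (CTRL) library, and whose distance to every gene assigned in the deposited gene table was above 30000 bp. This rule gave 278 of the 915 regions (30.4%), each 400 bp wide. Of the others, 394 overlapped a CTRL peak, 242 had no CTRL peak and lay within 30 kb of a TSS, and 1 had no CTRL peak and no assigned gene.

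The organoids were grown without feeder cells from alveolar type II (AT2) cells of wild-type male mice, 8–12 weeks old and of C57BL/6 background, sorted as EPCAM+MHCII+CD31-CD45- cells. CTRL organoids received DMSO and BLM organoids 100 μM BLM, each for 24 h, and chromatin bound by p53 was sequenced (ChIP-seq) in 2 libraries per condition. The material came from a pair of independent mice, and which libraries share a mouse is not stated in the sources used here, so the spread between the 2 libraries of a condition may be technical. Peak lists carry no cell identity, and the AT2 label could not be checked against marker genes.

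BLM breaks DNA, and p53 is the transcription factor that such breaks stabilise. It binds DNA as a tetramer at a response element made of a pair of similar half-sites, and at its classic targets that element lies in the promoter or the first intron. Many p53 sites in mammalian genomes nevertheless lie far from promoters, in introns or between genes, where some act as enhancers and the target gene is not necessarily the nearest one. A peak far from a TSS is therefore assigned to a gene by distance alone. The gene names used below are those assignments and say nothing about which gene responded.

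Over the whole series, the CTRL lists held 50430 and 48743 peaks and the BLM lists 39577 and 41451. Joining the peaks that overlap between any libraries gave 63268 regions, of which 2.03% were called in both BLM and in no CTRL library. Among the enriched regions the share with no CTRL peak was 56.9%, which is the criterion the members were chosen by and not a finding about them. The lists hold no read counts. Absence of a CTRL peak therefore means that the CTRL signal did not reach the calling threshold, a −log10 q of about 2, and not that p53 was absent.

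All 278 members had a called peak in both BLM libraries. Fold enrichment, the ratio of the p53 signal at a peak summit to the local background as given by the peak caller, ran from 3.23 to 45.4 with a median of 9.0 in BLM replicate 1, and from 3.56 to 60.7 with a median of 8.90 in BLM replicate 2. The median peak of the whole list stood at 6.67 and 6.59. Ranked by fold enrichment within each BLM list, with 100 as the highest percentile, the median member stood at percentile 75.1 in replicate 1 and 73.5 in replicate 2. The quartiles stood at percentiles 52.9 and 91.5 in replicate 1 and 51.6 and 89.8 in replicate 2, so most members were in the upper part of each list. Within the top 10% of peaks were 49 members in both lists and 52 in only 1 of them, while 34 were below the list median in both. In both libraries 257 members (92.4%) reached a −log10 q of 5 or more, against 82.6% of all joined regions that were called in both BLM libraries. These heights come from the contrast that chose the members and are given as a description.

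De novo regions within 30 kb of a TSS were of nearly the same height, with median fold enrichments of 9.10 and 8.95 and median percentiles of 75.5 and 74.0. Enriched regions that already had a CTRL peak were much higher, with medians of 20.7 and 21.0 and median percentiles of 98.7 in both libraries. De novo regions were narrow whether far or near. The median peak width was 232.5 bp in replicate 1 and 216 bp in replicate 2 at the far members and 233 bp and 230 bp at the near de novo regions, compared with 515 bp and 533 bp at the enriched regions with a CTRL peak. Between the quartiles of the members' own fold enrichment, the median width was 226 bp and 204.5 bp for the members and 363 bp and 353 bp for all peaks of the same height range in those lists (15297 and 15810 peaks).

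The BLM libraries placed the members alike and ranked them less closely. The summits of the replicates were 15 bp apart at the median member, and within 50 bp at 247 of 278 (88.8%). The log2 ratio of fold enrichment, replicate 2 over replicate 1, had a mean of −0.02 and an SD of 0.48 over the members. At 224 members (80.6%) the replicates were within 1.5-fold of each other, and at 11 they were more than 2-fold apart. Spearman's rank correlation between the replicates' fold enrichment was 0.69 over 278 regions, which share their libraries and were all selected for binding in BLM. It was 0.63 over the near de novo regions and 0.91 over the enriched regions with a CTRL peak, whose heights spread more widely. In the plot of both libraries most far and near de novo regions overlapped. The highest far values, 45.4 in replicate 1 and 60.7 in replicate 2, lay beyond the highest near ones, 38.8 and 38.9. They belong to different regions, and each was beyond the near values in 1 library only. The first of these regions had 29.9 in replicate 2 and the second 29.1 in replicate 1.

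**Figure D1:**
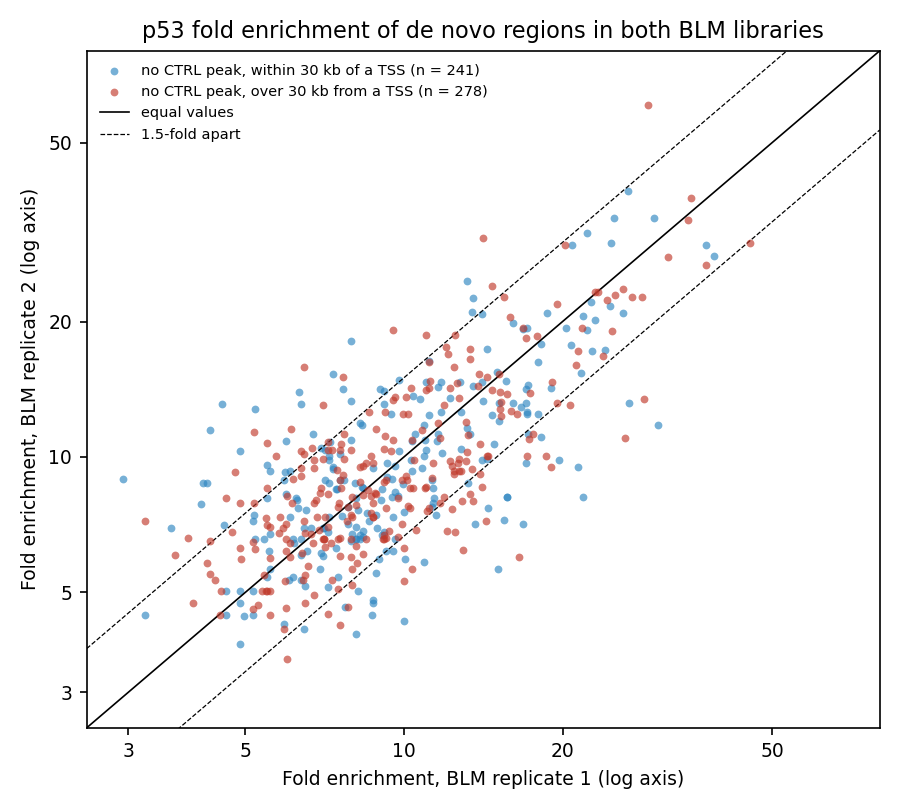
Fold enrichment of each de novo region in BLM replicate 1 (horizontal, log axis) and BLM replicate 2 (vertical, log axis), 278 regions over 30 kb from a TSS in red and 241 within 30 kb in blue. The solid line marks equal values and the dashed lines a 1.5-fold difference. Of the far regions, 224 lie between the dashed lines, 25 above them and 29 below.

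The replicates differed most at 6 members. Near *Rreb1*, a zinc-finger transcription factor gene, fold enrichment was 16.5 in replicate 1 and 6.0 in replicate 2. Near *Zbtb38*, a gene for a methyl-DNA-binding zinc-finger protein, it was 26.3 and 11.0, and near *Tmem168* 28.5 and 13.4. The opposite order held for a region near *Spin1*, a gene for a histone reader, with 6.46 in replicate 1 and 15.8 in replicate 2. At *Mbp*, which encodes myelin basic protein, the values were 3.23 and 7.19, and near *Ptprb*, which encodes a receptor tyrosine phosphatase, 5.20 and 11.4. Each of these peaks was called in both libraries, although that of *Mbp* in replicate 1 had a −log10 q of only 2.40, close to the calling threshold. The heights of these members rest on a pair of values that do not agree within 2-fold.

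The 12 members with the highest mean percentile over both BLM lists ranked between 77 and 352 of 39577 peaks in replicate 1 and between 38 and 419 of 41451 in replicate 2. Highest was chr11:23030472-23030871 (GRCm39), 72206 bp downstream of the TSS of *Fam161a* and 175407 bp upstream of that of *Xpo1*, the gene for the main nuclear export receptor. Its fold enrichment was 29.1 in replicate 1 and 60.7 in replicate 2, so its first place depended on replicate 2. Next came chr11:30269757-30270156, 51787 bp upstream of *Sptbn1*, which encodes βII-spectrin, a cytoskeletal protein that also serves as an adaptor of SMAD proteins. There the replicates stood at 35.0 and 37.7. At chr7:84114991-84115390, 55863 bp upstream of *Arnt2*, a gene for a bHLH-PAS transcription factor, they stood at 45.4 and 29.9. The region chr19:36428608-36429007, 103098 bp downstream of the TSS of *Pcgf5*, a Polycomb subunit gene, and 103261 bp upstream of the ubiquitin ligase gene *Hectd2*, had 34.6 and 33.6.

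Of the remaining 8, the region between *Peli2*, a gene for a Pellino ubiquitin ligase, and *Tmem260* had 37.4 and 26.7. It lay almost midway, 162746 bp from the one TSS and 162767 bp from the other. A region 135218 bp downstream of *Arhgap26*, which encodes a GTPase-activating protein, had 31.8 and 27.9, and its second assigned gene, at 362311 bp, was *Nr3c1*, the glucocorticoid receptor gene. At chr7:37394544-37394943, 74644 bp downstream of the TSS of *Zfp536*, the values were 26.0 and 23.6. The region upstream of *Phlpp1*, which encodes a phosphatase of AKT, had 28.3 and 22.6 and lay 68180 bp from *Zcchc2*. At chr1:119053321-119053720 they were 27.1 and 22.6, 72171 bp upstream of *Gli2*, the gene for an effector of Hedgehog signalling, and 296458 bp downstream of *Inhbb*, which encodes the activin βB subunit. The regions of *Cavin4* and *Plppr1* (25.2 and 22.9), of *Dleu7* and *Kcnrg* (23.4 and 23.2) and of *Ccdc54* (24.2 and 22.3) closed the group. In 10 of the 12 the replicates were within 1.5-fold.

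**Figure D2:**
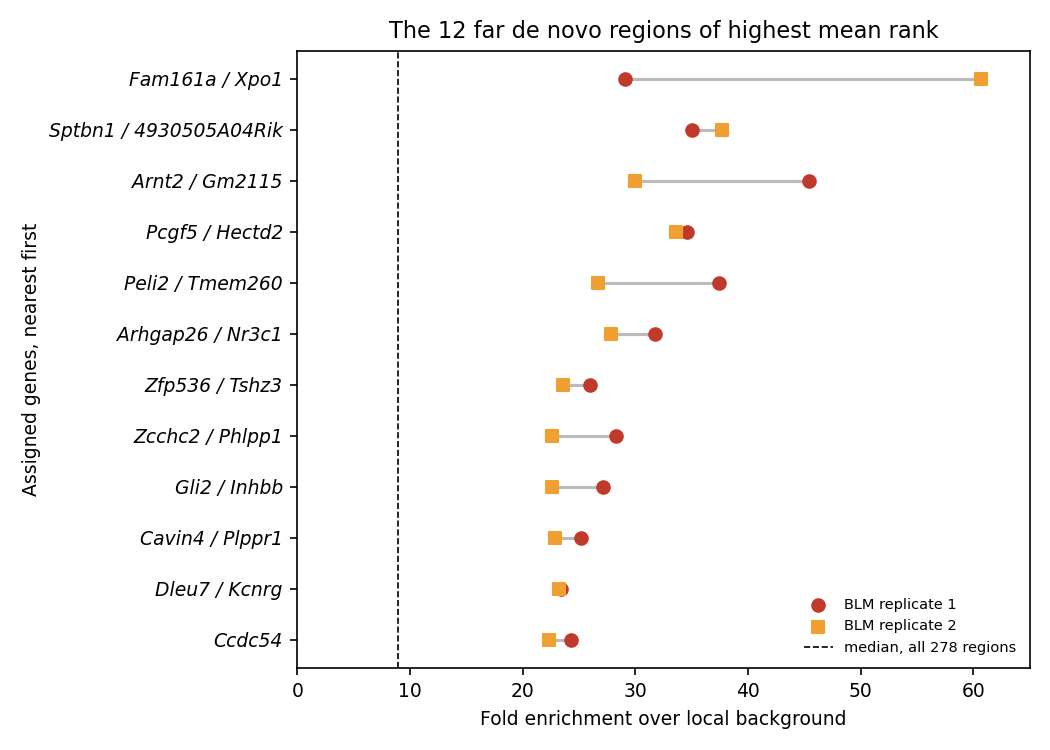
Fold enrichment over local background (horizontal, linear axis from 0) of the 12 far de novo regions with the highest mean percentile, in BLM replicate 1 (circles) and BLM replicate 2 (squares), labelled with their assigned genes. All values lie above 22, to the right of the dashed line at 8.90, the median over 278 regions and both libraries, and the *Fam161a* / *Xpo1* region has the widest gap between replicates.

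The nearest assigned TSS lay at a median of 92678 bp from the middle of a member, with quartiles at 52581 bp and 192654 bp. The 3 members just inside the threshold lay 30017 bp from *Camk4* (fold enrichment 9.24 and 6.59), 30221 bp from *Unc5cl* (7.94 and 10.3) and 31289 bp from *Tmem168*. The 3 de novo regions just outside it lay 29204 bp from *Asb7* (9.02 and 14.2), 29101 bp from *Gtpbp4* (10.1 and 5.93) and 28966 bp from *Egfl7* (9.62 and 8.36). The heights on either side of the threshold overlapped. The largest distances were 998675 bp to *Kcnt2*, a potassium channel gene, 925267 bp to *Csmd3* and 814718 bp to *Diaph3*, a gene for an actin-nucleating formin. The region assigned to *Csmd3* had a fold enrichment of 16.4 and 12.5, that of *Kcnt2* 5.96 and 5.30, and that of *Diaph3* 10.0 and 6.29.

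Among de novo regions with an assigned gene, 53.5% of 520 lay beyond 30 kb, and among enriched regions with a CTRL peak 38.0% of 389 did. The region lay downstream of its nearest TSS, on the side of the gene body, at 173 of the 278 members (62.2%). That share was 64.0% for near de novo regions and 54.5% for enriched regions with a CTRL peak. A gene's name was shared by 2 or more members in 42 cases, and 28 members had only 1 gene within reach. The numbers of members between 30 and 50 kb, 50 and 100 kb, 100 and 250 kb, and beyond 250 kb were 63, 88, 83 and 44. Median fold enrichment in these classes was 7.94, 8.31, 10.3 and 9.66 in replicate 1, and 8.13, 8.71, 9.29 and 8.81 in replicate 2. Height therefore showed no steady fall with distance in either library. It was highest between 100 and 250 kb and lower beyond 250 kb. Spearman's rank correlation between distance and fold enrichment over the members was 0.10 and 0.05.

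**Figure D3:**
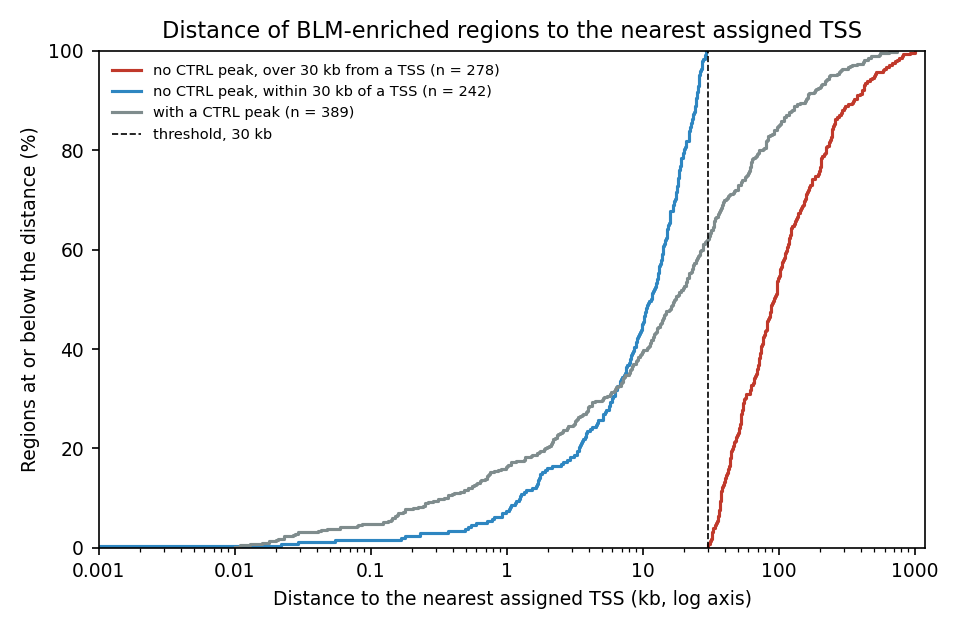
Share of enriched regions (vertical, %) at or below a distance to the nearest assigned TSS (horizontal, kb, log axis), for 278 far and 242 near de novo regions and 389 enriched regions with a CTRL peak and an assigned gene. The dashed line is the 30 kb threshold, which separates the red and the blue curve by construction. Of the regions in grey, 38.0% lie beyond it.

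The members, far from every assigned TSS, also had few other p53 peaks around them. The rule keeps assigned TSSs more than 30 kb from a member, whereas each near de novo region has an assigned TSS within 30 kb. The counts that follow are therefore not independent of the rule and were not tested. Within 50 kb of a member, leaving out peaks on the member itself, the CTRL lists had a median of 2 peaks each and the BLM lists a median of 1. It was 4 in each of the 4 libraries around near de novo regions, and 5 in both CTRL libraries, 4 in BLM replicate 1 and 5 in BLM replicate 2 around enriched regions with a CTRL peak. No CTRL peak of either library was within 50 kb at 79 members (28.4%), compared with 7.85% of the near de novo regions and 26 of 394 enriched regions with a CTRL peak. At 63 members there was no other peak in any of the 4 libraries. The median count in CTRL replicate 1 went from 4 for members at 30 to 50 kb, through 3 and 1, to 0 beyond 250 kb. Isolation among peaks and distance from a TSS thus moved together over the members. Only the class at 30 to 50 kb has an assigned TSS within the 50 kb window, and the relation was not tested. At the other end, 27 members had a CTRL peak less than 1 kb from their edge, and 5 of them less than 200 bp. For those the call of a de novo region rests on a short gap.

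**Figure D4:**
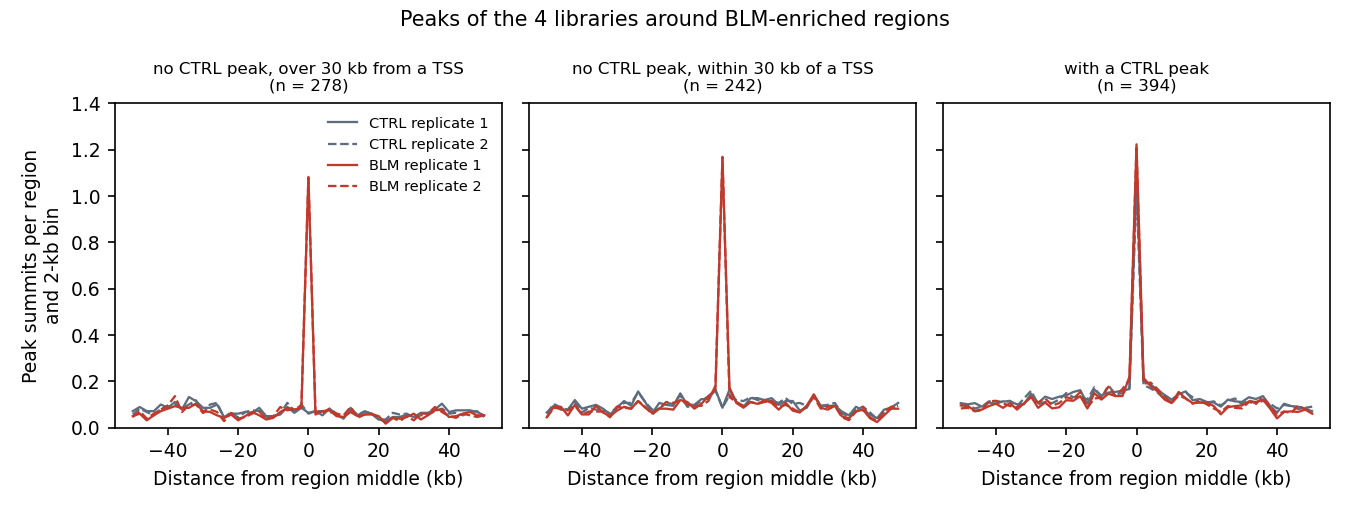
Peak summits per region and 2-kb bin (vertical) against the distance from the middle of the region (horizontal, kb) in CTRL (grey) and BLM (red) libraries, replicate 1 solid and replicate 2 dashed. At the far de novo regions the BLM libraries reach 1.08 summits in the central bin and the CTRL libraries 0.065 and 0.061. The CTRL values in the centre are summits of peaks that do not overlap the region.

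The deposited table attached the members to 481 of its 1425 genes (33.8%) in 528 assignments, and 68 of the 481 also had another enriched region that was no member. Against this share, classic p53 genes were few among the members. The rule leaves out regions within 30 kb of a TSS or with a CTRL peak, so this count is not independent of it. Of 49 p53 targets and regulators, 30 had an enriched region of any kind and 3 (10.0%) a far de novo one. *Plk2*, which encodes a kinase induced by p53, had its member 568616 bp downstream of the TSS, with a fold enrichment of 17.1 and 18.4. That region lay nearer to *Actbl2*, at 291351 bp. The member nearest to *Xiap*, the gene for a caspase inhibitor, lay 75558 bp upstream with 19.1 and 14.7. The third was *Bcl2*, the founding anti-apoptotic gene, which falls outside the naming rule and was added after its values were seen. Its member lay 471254 bp away, inside *Phlpp1*, with 6.77 and 4.93. Peaks of CTRL replicates 1 and 2 lay only 186 and 146 bp from that member. The lists were not independent of earlier results on these data, and their counts carry no test.

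For TGF-β and BMP signalling, 5 of the 17 list genes with an enriched region had a far member. This share (29.4%) was not above the 33.8% of all assigned genes. Nor were the shares of Wnt signalling (27.3%), secreted factors (30%) and receptor tyrosine kinases and their adaptors (25%). The ligand genes were *Bmp6*, with 17.3 and 11.0 at 82531 bp downstream of its TSS, and *Inhbb*, described above. The *Bmp6* member lay only 84 bp from a peak of CTRL replicate 1. The adaptor gene *Sptbn1* held the highest member of the list. *Cdkn1c*, which encodes the cyclin-dependent kinase inhibitor p57, had 13.5 and 9.42 at 104931 bp, inside *Kcnq1*. Peaks of CTRL replicates 1 and 2 lay 1002 and 890 bp from that member. *Rab31*, a small GTPase gene, had 11.1 and 7.57 at 52826 bp.

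Notch signalling had 3 of 5 list genes with a far member, a share of 60% on few genes against 33.8% of all assigned genes. Both members of *Jag1*, the gene for a Notch ligand, were similar in height although one lay 32354 bp and the other 489283 bp upstream, with 14.7 and 14.1 for the nearer and 15.3 and 13.3 for the farther. *Hes1*, a Notch target gene encoding a transcriptional repressor, had a region 242112 bp upstream with 15.9 and 20.5 and another 123050 bp upstream with 11.1 and 7.70. The receptor gene *Notch3* had 8.36 and 9.57 at 93317 bp, nearer to *Rrp1b*. In Wnt signalling 3 of 11 list genes were assigned. *Axin2*, a negative feedback gene of the pathway, had 10.2 and 7.80 at 415829 bp, with the region inside *Cep112*. *Tcf7l2*, a gene for a Wnt-responsive transcription factor, had 12.5 and 6.81 at 234498 bp. The third, the ligand gene *Wnt2*, was added after its values were seen and had 10.0 and 5.31 at 53266 bp. None of the 3 Hippo pathway genes with an enriched region had a far member.

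Of the cell-state genes of the alveolar epithelium, few had an enriched region of any kind. None of the 2 AT1 genes with an enriched region had a far member. One of 2 AT2 genes did, *Etv5*, a gene for an ETS transcription factor, with 5.81 and 7.35 at 136946 bp, added after its values were seen. Of the 5 transitional-state genes with an enriched region, *Itgb6*, which encodes the integrin β6 subunit of a TGF-β-activating integrin, had a member 153523 bp upstream. This region lay inside *Rbms1*, 54204 bp from that gene's TSS, with 11.4 and 9.68. Within 50 kb of it the CTRL lists had 16 and 18 other peaks and the BLM lists 10 each. The nearest peaks of CTRL replicates 1 and 2 lay 1072 and 1110 bp away. Among secreted factors, 3 of 10 genes were assigned. *Adm*, the adrenomedullin gene, had 16.0 and 12.6 at 43691 bp, *Stc1*, the stanniocalcin-1 gene, 15.7 and 13.8 at 249110 bp, and *Fgf10*, a lung growth factor gene, 12.3 and 7.64 at 541867 bp. The *Stc1* region lay nearer to *Adam28* and the *Fgf10* region nearer to *Nnt*. Of 8 receptor tyrosine kinase and adaptor genes, *Epha4* had a pair of members (7.45 and 9.37 at 43931 bp, 5.57 and 5.97 at 434110 bp) and *Ptk2*, which encodes focal adhesion kinase, 1 inside its own gene body (8.26 and 8.82).

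Genes of integrins and matrix had a far member in 8 of 14 cases, and transcription factor genes in 18 of 41, both above the 33.8% of all assigned genes, and neither difference was tested. By mean percentile the highest matrix gene was *Col6a1*, encoding a chain of collagen VI, with 19.5 and 21.9, although the region lay 200975 bp upstream and inside *Pcbp3*. *Tnc*, which encodes tenascin-C, was higher in replicate 1 and lower in replicate 2, with 21.3 and 16.0, with the region 854216 bp upstream and nearer to *Pappa*. *Col18a1* had 12.6 and 14.6 at 88420 bp, *Col12a1* 9.44 and 10.3 at 69628 bp, and *Itga8*, an integrin α subunit gene, 9.91 and 8.90 at 245498 bp. The *Col18a1* region lay nearer to *Pofut2*. Among transcription factors other than *Arnt2* and *Nr3c1*, *Bcl11b* had 11.9 and 13 at 65898 bp and *Foxp1* 17.1 and 10.1 at 117899 bp. *Cebpd* had 13.5 and 8.0 at 173363 bp, *Egr3* 10.3 and 7.70 at 111605 bp upstream, and *Foxp2* 8.56 and 8.46 at 347687 bp downstream, inside its own gene body. The *Cebpd* region lay inside *Spidr* and the *Egr3* region inside *Pebp4*. *Klf3* had a pair of members, with 8.87 and 8.30 at 99059 bp and 9.27 and 7.71 at 488541 bp upstream, the farther inside *Tbc1d1*. Peaks of CTRL replicates 1 and 2 lay only 330 and 418 bp from the farther member. The 11 list genes not given above had members with fold enrichments of 4.78 to 8.36 in replicate 1 and 4.44 to 10.5 in replicate 2.

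How far a member was from a gene depended on which genes were counted. The deposited distances were taken by the authors on the earlier mouse build, mm10. For 208 of the 250 members with 2 assigned genes, both distances pointed to the same place on GRCm38.p6, the RefSeq reference of that build, within 1000 bp. Of these 208, 96 (46.2%) fell inside a protein-coding gene, 25 (12%) only inside a gene for a long non-coding RNA (lncRNA), 1 inside another RNA gene and 86 (41.3%) between genes. Near de novo regions fell inside a protein-coding gene in 64.0% of 178 cases and inside a lncRNA gene only in 6.18%. The enriched regions with a CTRL peak did so in 56.3% and 10.2% of 245 cases. Since the rule uses distance from a TSS, these shares are not independent of it and were not tested. This comparison with RefSeq was chosen after the data were seen.

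**Figure D5:**
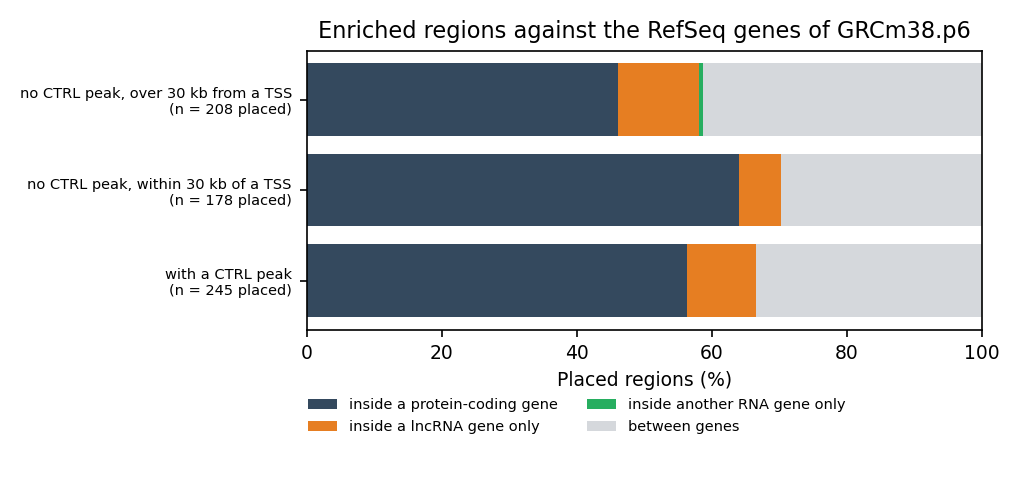
Percentage of placed regions (horizontal) inside a protein-coding gene, inside a lncRNA gene only, inside another RNA gene only, or between RefSeq genes of GRCm38.p6, for the 3 classes of enriched regions (208, 178 and 245 placed). The far de novo regions have the largest share between genes, 41.3% against 29.8% and 33.5%.

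RefSeq also listed TSSs that the deposited assignments did not use. The promoter table used here lacked some genes. For the region of *Ago2* and *Ptk2*, its nearest TSS was 656657 bp away, against 61849 bp to *Ago2* in the deposited distances. The counts from it are therefore lower limits. Of 203 placed members on chromosomes it covered, 61 had a RefSeq TSS within 30 kb, 17 within 5 kb and 4 within 1 kb. The nearest TSS in it was that of a lncRNA at 49 of the 61 and of a protein-coding gene at 12. No placed member reached a promoter window of that table, the 250 bp before to 50 bp after a TSS. Among the TSSs it held, the closest to a member was that of the lncRNA gene *LOC108167852*, at 467 bp (14.4 and 10.1). Several of the highest members were among them. The region between *Gli2* and *Inhbb* lay inside the lncRNA gene *Gm41934*, 720 bp from its TSS. The member upstream of *Sptbn1* lay inside the lncRNA gene *Gm40820*, 5136 bp from its TSS, and the *Dleu7* region inside *Gm35307*. For a protein-coding example chosen after the values were seen, a region 221820 bp downstream of the deposited TSS of *Tcf12*, a bHLH transcription factor gene, was 6083 bp from another *Tcf12* TSS and had 10.5 and 9.87.

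The largest group of members at one place was in such a lncRNA gene. *Frmd8* had 4 members, the highest number at any gene, 37277 to 50498 bp downstream of its TSS. The middles of all 4 fell inside *Neat1*, whose transcript is the scaffold of nuclear paraspeckles and is known as a p53-responsive lncRNA. Their distances from *Frmd8* alone place them there, and the annotated gene is 20773 bp long. The interval farthest from *Frmd8* reached past the annotated end of *Neat1*. Fold enrichment was 10.1 in replicate 1 and 13.6 in replicate 2 at chr19:5887826-5888225, 7.60 and 8.55 at chr19:5882446-5882845, 7.16 and 4.47 at chr19:5883560-5883959, and 5.97 and 4.62 at chr19:5874605-5875004. The first was the highest in both libraries, and its peaks were 1308 and 676 bp wide. The second kept its place as well, and the last 2 were close to each other in replicate 2.

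The gene body of *Neat1* was not free of p53 peaks in vehicle. Across the 13621 bp from the first to the last of these members, CTRL replicate 1 had 3 peaks and CTRL replicate 2 had 8, covering 1124 and 2309 bp. The BLM libraries had 12 and 14 peaks there, covering 4468 and 4442 bp. Another enriched region between these members, chr19:5883057-5883456, had 4.38 and 7.73 in BLM and did not count as de novo because CTRL replicate 2 had a peak on it, at 6.31. Within 50 kb of these members each library had between 36 and 48 peaks. That density stands far above the median of 1 or 2 around a member, and whether it bears on the local background of these peaks was not tested.

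Other members also stood in groups. In all, 20 members lay in 11 adjacent pairs less than 100 kb apart, of which 5 pairs were within 10 kb, 3 of them in *Neat1*. Outside *Neat1* the closest were 4047 bp apart, 51292 and 55339 bp downstream of the TSS of *Nfkbiz*, which encodes an atypical nuclear IκB protein. The nearer had 7.51 and 5.08 and the farther 6.16 and 8.95, so the replicates disagreed on which was higher. A second pair, 6858 bp apart, was assigned to *Tigit* and to *Zbtb20*, with 15.2 and 12.8 at one region and 8.67 and 7.50 at the other. In this pair the same region was the higher in both libraries.

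*Fut8*, the gene of the core fucosyltransferase, had 3 members, 238869 bp upstream (7.08 and 6.30), 651803 bp downstream (12.7 and 9.29) and 731200 bp downstream (19.0 and 9.48). Between 111621 and 469822 bp downstream of *Gdf6*, a BMP family ligand gene, a pair of members had 21.4 and 17.2 for the nearer and 12.1 and 17.0 for the farther, and both were also assigned to *2610301B20Rik*. *Galnt18* had a pair inside its gene body, with 11.0 and 8.59 at 77931 bp and 6.37 and 9.08 at 250521 bp, which were assigned to the translation factor gene *Eif4g2* as well. The paired members of *B4galnt3*, inside *Ninj2*, had 9.15 and 10.4 at one region and 4.47 and 4.44 at the other. Peaks of CTRL replicates 1 and 2 lay 460 and 556 bp from the former. The members of *Agtpbp1*, near the neurotrophin receptor gene *Ntrk2*, had 12.7 and 9.89 and 8.76 and 7.35, and the first lay inside *Ntrk2*. The members shared by *Gatb* had 17.6 and 11.3 inside its own gene body and 10.1 and 9.05 inside *Fbxw7*, the gene for a ubiquitin ligase subunit. A peak of CTRL replicate 2 lay 483 bp from the member inside *Fbxw7*. The pair of *Gm10097*, also assigned to *Syne1*, had 6.77 and 7.90 and 6.09 and 6.43. Since these pairs share a gene by distance alone, they are not separate evidence for that gene.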

How the data were processed

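p53 ChIP-seq peaks of 2 CTRL and 2 BLM libraries of alveolar organoids were compared as lists, and the 4 input libraries were not analysed here. Per the labels, the authors' processing used Trim Galore 0.6.7, Bowtie2 2.5.1, MACS3 3.0.0b1, DiffBind 3.8.4 and edgeR 3.40.2. The authors deposited, for each peak of each library, a fold enrichment, the −log10 of its p-value and of its q-value, and a score, which is the latter multiplied by 10 and cut to an integer. The authors also deposited the positions of the enriched regions and a GREAT 4.0.4 table of genes with distances on mm10. The criteria by which the enriched regions were selected are not given in the sources used here. Positions are on GRCm39 and none was converted. The files give no read counts, so the depth is unknown and limits how precisely any height can be stated.

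Overlaps (at least 1 bp) were computed in Python 3.11.15 with pandas 2.3.3, numpy 2.4.6, scipy 1.17.1 and matplotlib 3.10.9. Where a region had several peaks in a library, the one with the highest fold enrichment was used. The overlap steps were tested on simulated lists. A member was placed on GRCm38.p6 from the distances to both its genes and the RefSeq TSSs, where these agreed within 1000 bp. Of the 481 genes, 474 matched RefSeq by symbol or synonym. For 94 of 97 genes with a member and several enriched regions, the distances gave 1 TSS position within 10 bp. No tests were run, since the members were chosen on the contrast itself.

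Named regions were the 12 with the highest mean percentile, those of up to 30 genes of the gene lists and of up to 12 genes with at least 2 members, 3 on each side of the threshold, 3 with the highest and 3 with the lowest ratio between BLM replicates, and the 3 farthest from a TSS. The members, gene lists and this rule were chosen with earlier results of these data known. A search for the p53 response element was not run, since no GRCm39 sequence was used here. One gene that this rule covers is not reported here.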

Additional observations from a re-analysis of the deposited data

How the results depend on the processing

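The number of members was 278, and 326, 215 and 127 with the distance threshold at 20, 50 and 100 kb. Leaving out either CTRL library gave 298 to 306, and the other definitions of a CTRL peak 261 to 294. The median of the mean percentile over both BLM lists was 71.6. It was 68.1 with BLM peaks of −log10 q of at least 5, 73.4 and 76.3 for members beyond 50 and 100 kb, and 73.5 to 75.1 with either BLM library left out. The median number of CTRL peaks within 50 kb was 2, and 4.25 within 100 kb, 0 within 10 kb and 1.5 with peaks of −log10 q of at least 5. The cause of these shifts was not tested, apart from the windows, which count more or fewer peaks by construction. The summit agreement, the spread between replicates, the share downstream of the TSS and the share inside protein-coding genes stayed within their limits in the alternatives run, of which the 2 on gene bodies were added after the data were seen. The search for the p53 response element was not run. No paired analysis was possible because which libraries share a mouse is not stated and no result here comes from a test. With 2 libraries per condition and no read counts, the lists cannot show how far below the calling threshold the CTRL signal lay.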
